A study of Mus musculus with 6 samples.

Results

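The Hox genes lie in 4 clusters in the mouse, Hoxa on chromosome 6, Hoxb on chromosome 11, Hoxc on chromosome 15 and Hoxd on chromosome 2. Each probe set whose platform annotation named exactly 1 gene, and whose symbol was that of a gene in 1 of these clusters, was taken as a member. This gave 48 of 45037 probe sets, for 33 of the 39 Hox cluster genes in the RefSeq gene table and of 18193 genes named on the arrays. By cluster there were 9 of 11 Hoxa genes, 9 of 10 Hoxb genes, 7 of 9 Hoxc genes and 8 of 9 Hoxd genes. The other 6 had no probe set that named them alone among the probe sets used here.

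Hox genes encode homeodomain transcription factors that give cells a positional identity along the body axis. Genes of the same number in different clusters are paralogues, and low numbers act towards the head whereas high numbers act towards the tail. Along the mouse female tract, Hoxa9 marks the oviduct, Hoxa10 the uterus, Hoxa11 the uterus and cervix, and Hoxa13 the cervix and upper vagina. In adult mice the uterine stroma needs Hoxa10 and Hoxa11 for implantation and decidualization, the differentiation of stromal cells that receives an embryo.

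Uteri of 2 genotypes were compared, 3 arrays for each. Control uteri (Ihhf/f) carried floxed alleles of Indian hedgehog (Ihh), the secreted Hedgehog ligand that uterine epithelium sends to the stroma. Ihh-ablated uteri (PRcre/+Ihhf/f, written Ihhd/d) carried the same floxed alleles and a Cre recombinase, PRcre, which is active in cells that express the progesterone receptor. The tissue dates from day -1 of an artificially induced decidual response, so before the decidual stimulus. Biotin-labelled cRNA made from total RNA of uterine tissue went onto Affymetrix mouse arrays, each of which gave 1 processed intensity per probe set. The labels give no age, do not say whether each sample was a separate mouse, and do not say whether controls carried PRcre, so every p-value reflects only how these samples spread, possibly for technical reasons. Cre activity and Ihh loss cannot be told apart in this design. The source field of the labels names SmoM2, a different model, in both groups, against titles, genotypes and design text.

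The arrays had median intensities of 121 to 142. The Ihh probe set differed by -0.43 on the log2 scale (limma, adjusted p = 0.164), while its targets fell, Gli1 from 419 ± 84.7 to 72.0 ± 6.32 (log2 -2.53, adjusted p = 0.000492) and Ptch1 from 1302 ± 269 to 411 ± 34.6 (log2 -1.65, adjusted p = 0.00146; mean intensity ± SD, n = 3 in each group). The adjusted p of Ptch1 was 0.0580 with the adipocyte markers as a covariate. As the mean of its probe sets Ptch1 differed by -0.89 (limma adjusted p = 0.00465), a smaller fall than that of its brightest probe set given above. The part of Ihh that was deleted is not given, so its probe set may lie outside it and then checks nothing. Markers of uterine epithelium (8 of 8), smooth muscle (8 of 8) and endometrial stroma (8 of 8) were all tested, that is, bright enough on these arrays to enter the comparison. Some arrays also carried other tissue. Pancreatic acinar markers summed to 69698 in Ihh-ablated replicate 2 and to between 912 and 2591 elsewhere. Skeletal muscle markers summed to 13513 in control replicate 3, to 5152 and 5449 in the other controls and to between 2114 and 2715 on Ihh-ablated arrays. The gap between these other controls and the Ihh-ablated arrays lay mostly in Acta1 (4164 and 3559 against 1162 to 1593). Tnni2 and Ckm were also higher in these controls. Mylpf (83.9 and 88.5 against 73.7 to 86.6) and Tnnt3 (108 and 123 against 103 to 121) read much alike. The 7 adipocyte markers on the arrays of 10 listed, none of them at 0, summed to 1513, 4142 and 7290 in control and to 5770, 9335 and 15741 on Ihh-ablated arrays. Their groups overlapped, but the Ihh-ablated sums were mostly the higher ones. Adipoq, the adipocyte hormone adiponectin, ranged from 266 to 1649 in control and from 1288 to 3946 on Ihh-ablated arrays. Lep, another of the 7, read much alike in both groups (187, 277 and 220 in control, 247, 206 and 220 on Ihh-ablated arrays). In such whole-tissue RNA, fewer cells of a type and less RNA per cell cannot be told apart.

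Most Hox transcripts of the uterus did not pass the test between genotypes, and the 1 that did, Hoxd11, was lower in the Ihh-ablated uteri. The test was limma's moderated test on log2 intensities over all probe sets, with Benjamini-Hochberg adjustment and a threshold of 0.05, and the brightest probe set stood for each gene. Of 33 member genes 26 were bright enough to be tested. Hoxd11 fell, 0 rose and 25 did not pass, so 1 of 26 (3.85%) was called. Over all genes 2.81% passed (437 of 15530), 1.53% lower and 1.28% higher, so the share among Hox genes is near the background. By probe set 1 of 37 passed, against 2.14% of all probe sets (1.11% lower). At an adjusted p under 0.10, 2 Hox genes were called (Hoxd11 and Hoxa13), against 6.58% of all genes. Groups did not overlap for 9 Hox genes with lower and 2 with higher Ihh-ablated arrays (34.6% and 7.69%), against 19% and 13.3% of all genes (32.3% in either direction). At an unadjusted p under 0.05, 4 Hox genes were lower and 2 higher (15.4% and 7.69%), against 14.2% and 9.99% of all genes (24.2% in either direction). Without control replicate 3, 4 Hox genes passed, against 12.2% of all genes. Without both arrays that carried pancreas or muscle transcripts 3 passed, against 7.12%. With array weights 2 passed, against 5.04%, and with the replicate number as a block 1 passed, against 5.94%. The median log2 difference (Ihh-ablated minus control) was -0.07 over the 26 genes and -0.04 over all genes. Centring each array on its median moved these to 0.02 and 0.05. Among Hox genes 16 of 26 (61.5%) differed by less than 0, as did 56.7% of all genes, and 20 of the 26 lay within 0.3 of 0.

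**Figure D1:**
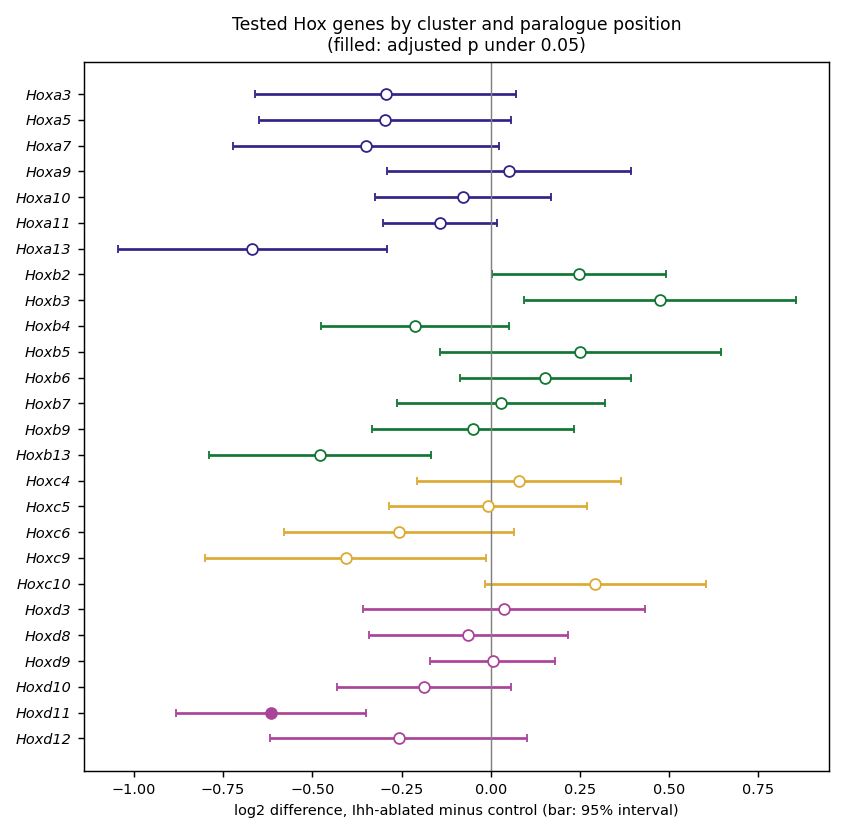
Each row is 1 tested Hox gene, ordered by cluster (colour) and paralogue position; points give the log2 difference of its brightest probe set (Ihh-ablated minus control, 3 arrays each), bars the 95% interval of the limma model, and filled points an adjusted p under 0.05. Hoxd11 (-0.62) is the 1 filled point, and the intervals of Hoxa13, Hoxb13 and Hoxc9 lie below 0 and those of Hoxb2 and Hoxb3 above 0 without passing the adjusted threshold.

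Hoxd11, which acts with its paralogue Hoxa11 in the developing mouse kidney and forelimb, read 332, 295 and 270.0 on the control arrays and 182, 206 and 196 on the Ihh-ablated arrays. Every Ihh-ablated array lay below every control array. Its mean of 299 ± 31.1 fell to 195 ± 11.97, a 1.53-fold difference (limma log2 -0.62 with SE 0.12, 95% interval -0.88 to -0.35, adjusted p = 0.0336). The size of the difference depended little on the array left out (log2 -0.69 to -0.54), but the call was lost without control replicate 1 (adjusted p = 0.122), control replicate 2 (0.0635) and Ihh-ablated replicates 1, 2 and 3 (0.152, 0.0848 and 0.135). It was also lost under median centring (log2 -0.53, adjusted p = 0.0814) and with the adipocyte markers as a covariate (log2 -0.52, adjusted p = 0.501), a fit that called 11 probe sets in all. Over the 19 alternatives the adjusted p ran from 0.0128 to 0.501. Without control replicate 3 and Ihh-ablated replicate 2, the arrays with muscle and pancreas transcripts, the difference was larger (log2 -0.73, adjusted p = 0.0297). The adipocyte sums, in the same order of arrays, were 1513, 4142 and 7290 in control and 5770, 9335 and 15741 for the Ihh-ablated group. Among controls Hoxd11 was lower where the sum was higher, and among the Ihh-ablated arrays the lowest Hoxd11 reading had the lowest sum. Beyond the covariate fit, the part of adipocyte content in the difference was not tested. The endometrial stroma markers moved in both directions. Thy1 (log2 -1.44, adjusted p = 0.00139) and Vim (-0.37, 0.0139) fell and Dcn (0.24, 0.0488) rose by limma, and Hand2 differed by -0.43 (0.0514). Of the 8 stroma markers 4 had all Ihh-ablated arrays below all control arrays and 3 had them above. Of the 8 uterine epithelium markers 0 passed, and their median log2 difference was 0.28. Krt18 (0.44, limma adjusted p = 0.0769) and Foxa2 (0.50, 0.0884) had all Ihh-ablated arrays above all control arrays. For 0 epithelium markers did they lie below. Over all genes 13.3% had them above. The part of stroma and epithelium markers in the Hoxd11 difference was not tested.

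Hoxa11, needed in the mouse uterus for implantation and stromal function, read 2473, 2374 and 2175 in control and 2223, 1990 and 2145 on Ihh-ablated arrays. The groups overlapped, since Ihh-ablated replicate 1 lay above control replicate 3. The log2 difference was -0.14 (95% interval -0.30 to 0.02, adjusted p = 0.259), so a fall as large as that of Hoxd11 lies outside the interval, while small differences in either direction lie inside it. Its antisense transcript Hoxa11os is not a cluster protein gene and so no member, and it is named here after its values were seen. Hoxa11os read 968, 800.1 and 1005 in control and 562, 542 and 607 on Ihh-ablated arrays. All Ihh-ablated arrays lay below all control arrays, and its mean of 924 ± 109 fell to 570.1 ± 33.5, a 1.62-fold difference (limma log2 -0.69 with SE 0.10, adjusted p = 0.0136). The call was lost without control replicate 1 (adjusted p = 0.0768), without Ihh-ablated replicate 1 (0.0672), under median centring (0.0803) and with the adipocyte covariate (0.195), where the log2 difference was -0.73. A dimmer Hoxa11os probe set, left out of the test, read 42.5, 60.1 and 43.0 in control and 23.9, 31.5 and 28.6 on Ihh-ablated arrays.

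Within each array the log2 intensity of Hoxa11os minus that of Hoxa11 was -1.35, -1.57 and -1.11 in control and -1.98, -1.88 and -1.82 on Ihh-ablated arrays. The antisense reading was thus lower relative to the sense reading on every Ihh-ablated array, by 0.55 on average. For Hoxd11 minus Hoxa11 the mean within-array difference was -2.97 ± 0.06 in control and -3.45 ± 0.17 on Ihh-ablated arrays (SD, n = 3). For Hoxd11 minus its cluster neighbour Hoxd10 these means were -1.79 ± 0.05 and -2.22 ± 0.12. These pairs were chosen after their values were seen, so the differences are a description with no test, and probe sets have no common scale.

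**Figure D2:**
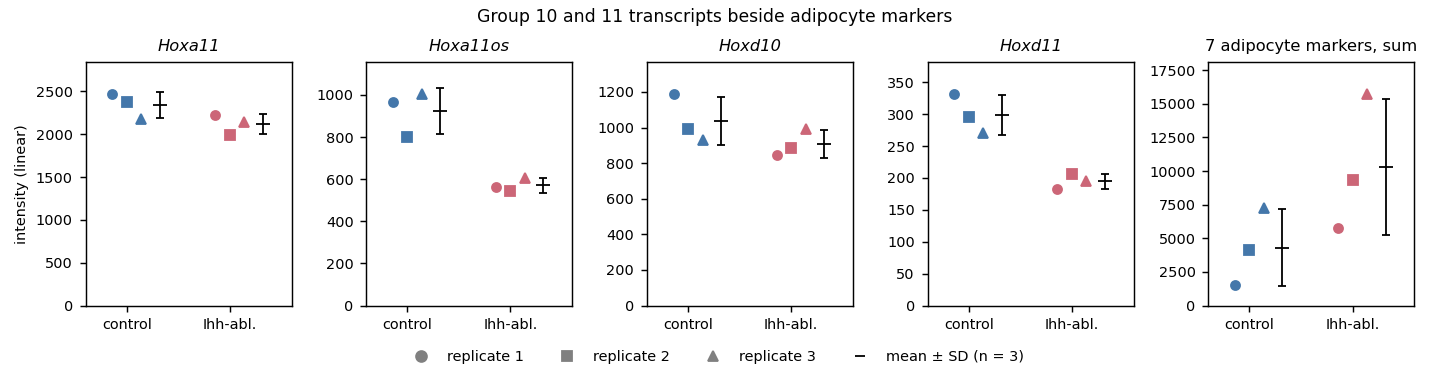
Linear intensities on each of the 6 arrays for Hoxa11, its antisense Hoxa11os, Hoxd10 and Hoxd11, and the summed intensity of 7 adipocyte markers; colours give the groups, symbols the replicate number, and the black bar the mean ± SD (n = 3). The groups are apart for Hoxa11os and Hoxd11 and overlap for Hoxa11, Hoxd10 and the adipocyte markers.

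The windows around the annotated starts of these group 11 transcripts are shown because Hoxa11 and Hoxa11os start inside one another's spans. Hoxa11os passed the test between genotypes and Hoxa11 did not, and they were not tested against each other. In the RefSeq table the spans of Hoxa11 and Hoxa11os overlap by 568 bases on opposite strands. Each window holds 250 bases before and 50 after a start, is written 5′ to 3′ along the strand of its gene, and comes from RefSeq. Hoxd11 has a window at each of its annotated starts. Capitals mark matches, on either strand, to the motif of the paired PBX and HOX factors (TGATNNAT), to the TATA motif (TATAAA) or to the GLI motif (GACCACCCA), which the Hedgehog effectors of the Gli family bind.
Hoxd11, upstream start (GRCm38.p6, chr2:74679308-74679607, plus strand): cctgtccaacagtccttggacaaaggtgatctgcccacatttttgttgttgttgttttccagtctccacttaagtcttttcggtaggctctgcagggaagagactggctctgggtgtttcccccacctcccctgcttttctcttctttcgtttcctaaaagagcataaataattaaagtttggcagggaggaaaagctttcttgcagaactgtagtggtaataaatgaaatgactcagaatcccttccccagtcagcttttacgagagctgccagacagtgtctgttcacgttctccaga
Hoxd11, downstream start (GRCm38.p6, chr2:74682073-74682372, plus strand): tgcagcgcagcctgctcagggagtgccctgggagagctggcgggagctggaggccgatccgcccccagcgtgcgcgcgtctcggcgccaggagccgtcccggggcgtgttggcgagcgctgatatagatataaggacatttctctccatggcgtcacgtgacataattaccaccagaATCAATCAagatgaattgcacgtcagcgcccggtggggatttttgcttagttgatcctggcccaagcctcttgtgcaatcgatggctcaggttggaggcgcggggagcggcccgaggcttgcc
Hoxa11 (GRCm38.p6, chr6:52245761-52246060, minus strand): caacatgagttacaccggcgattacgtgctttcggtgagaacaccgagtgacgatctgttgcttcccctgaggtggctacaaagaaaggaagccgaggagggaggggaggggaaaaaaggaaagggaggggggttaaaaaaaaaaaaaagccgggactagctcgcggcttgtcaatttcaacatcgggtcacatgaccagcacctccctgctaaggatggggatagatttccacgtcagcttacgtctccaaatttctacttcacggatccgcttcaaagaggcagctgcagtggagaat
Hoxa11os (GRCm38.p6, chr6:52244993-52245292, plus strand): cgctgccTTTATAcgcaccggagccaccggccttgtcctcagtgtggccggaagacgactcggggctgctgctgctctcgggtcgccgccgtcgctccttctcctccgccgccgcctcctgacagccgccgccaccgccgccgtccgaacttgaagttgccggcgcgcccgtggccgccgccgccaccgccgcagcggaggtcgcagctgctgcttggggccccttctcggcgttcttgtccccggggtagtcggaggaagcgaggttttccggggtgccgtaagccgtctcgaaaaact
The capitals in the downstream Hoxd11 window are a match to the PBX and HOX motif, and those in the Hoxa11os window are a TATA match read on the other strand. Windows were given for 19 of the 33 member genes, 21 windows in all. The GLI motif was in 0 of the 21 and in 0.253% of 32851 windows of this length over all genes. The PBX and HOX motif was in 3 of 21 (Hoxa2, Hoxb1 and Hoxd11), or 14.3%, against 8.85% of all windows. The TATA motif was in 2 of 21 (Hoxa10 and Hoxd13), or 9.52%, against 13.6%. In the windows printed no match overlaps another. A match here is a description of the letters, and its absence covers this window alone.

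The other members at positions 9 to 13 were led by Hoxa13, which patterns the lower tract, the digits and the hindgut. It read 135, 179 and 114 in control and 85.8, 89.1 and 90.3 on Ihh-ablated arrays, and the groups did not overlap. The log2 difference was -0.67 (SE 0.17), larger than that of Hoxd11, but its adjusted p of 0.0781 did not pass, and the control arrays spread more (SD 33.3). It passed without control replicate 3 (log2 -0.82, adjusted p = 0.0157), without both arrays with other-tissue transcripts (-0.82, 0.0445) and with array weights (-0.57, 0.0325). Its Ihh-ablated level of 88.4 ± 2.36 was close to the level of 71.4 below which probe sets were left out, so the size of the ratio is uncertain.

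Hoxb13, known for its role in the mouse prostate and tail, read 198, 199 and 153 in control and 131, 138 and 123 on Ihh-ablated arrays, with no overlap. Its log2 difference was -0.48 (95% interval -0.79 to -0.17, adjusted p = 0.107), and -0.61 (0.0211) without control replicate 3. Hoxc9, a trunk gene that sets motor neuron identity, read 197, 294 and 184 against 176, 163 and 159, without overlap, and control replicate 2 lay far above the other arrays. Its log2 difference was -0.41 (adjusted p = 0.207). Hoxc10, a lumbar and hindlimb gene, read 116, 105 and 135 in control and 160, 135 and 141 on Ihh-ablated arrays (log2 0.29, adjusted p = 0.238). Its groups overlapped by the reading of 1 array, since Ihh-ablated replicate 2 was just below control replicate 3, and Hoxc10 was the 1 gene at these positions that differed by more than 0.06 above 0.

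Hoxa10, which the mouse uterine stroma needs to respond to progesterone and decidualize, read 1811, 1694 and 1345 in control and 1618, 1424 and 1525 on Ihh-ablated arrays. All Ihh-ablated values lay within the control range, and the log2 difference was -0.08 (95% interval -0.32 to 0.17, adjusted p = 0.680). Its sign turned under median centring (0.01), without control replicate 1 (0.01) and with the adipocyte covariate (0.12). A fall as large as that of Hoxd11 lies outside this interval. The dimmer Hoxa10 probe set differed by -0.31, and its 95% interval of -0.72 to 0.10 does hold such a fall. Hoxa9, the oviduct-level member, had a bright probe set that read 1094, 796 and 1139 in control and 870, 1088 and 1166 on Ihh-ablated arrays (log2 0.05, adjusted p = 0.850). Here the groups spanned nearly the same range. Hoxd10, a hindlimb gene of the Hoxd cluster, read 1189, 992 and 929 against 843, 886 and 994, and its groups overlapped (log2 -0.19, 95% interval -0.43 to 0.06, adjusted p = 0.320). Of the rest of this part of the clusters, Hoxd9 differed by 0.01 (95% interval -0.17 to 0.18), Hoxb9 by -0.05 and Hoxd12 by -0.26, with adjusted p values of 0.973, 0.823 and 0.345.

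**Figure D3:**
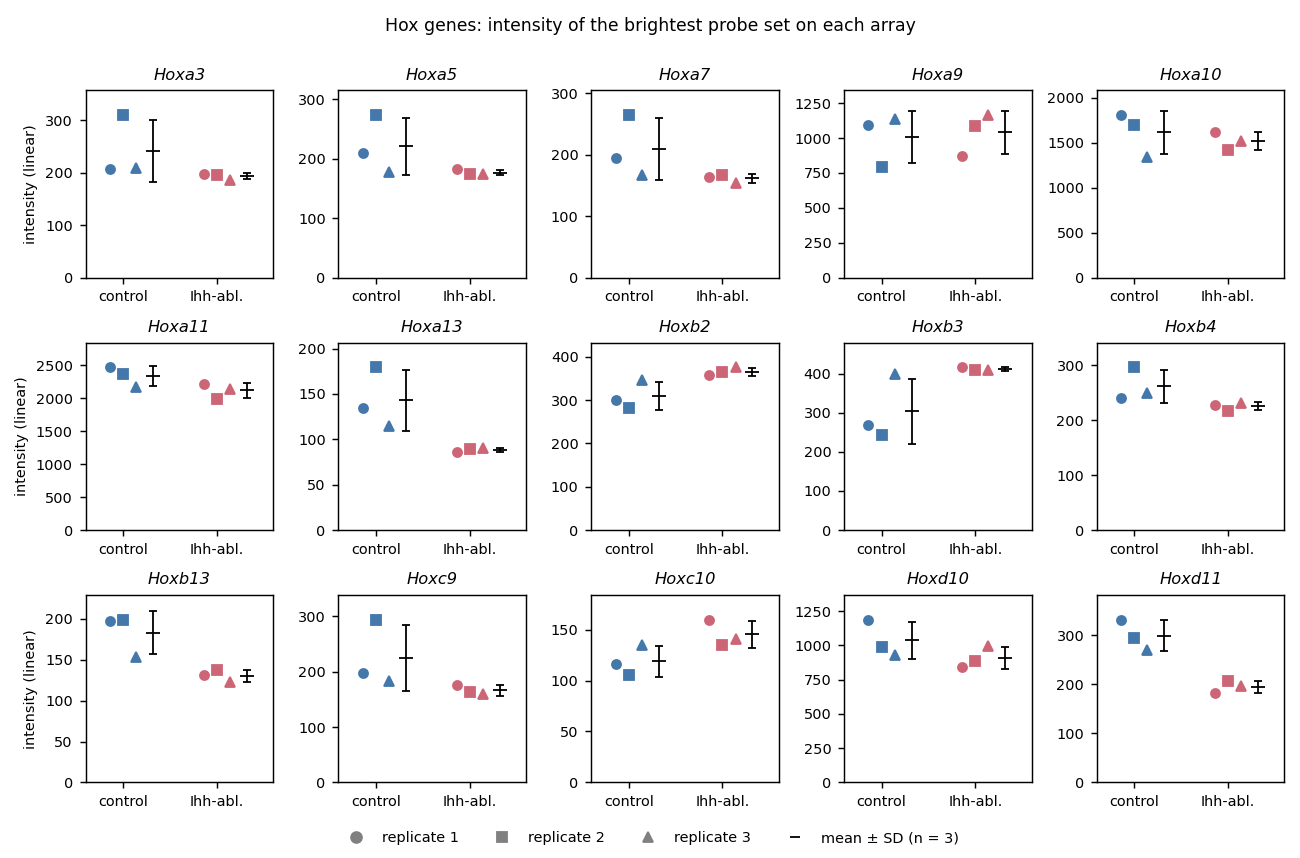
Linear intensity of the brightest probe set on each array for 15 Hox genes (the 12 of lowest p and those with known roles in the tract); blue is control, red Ihh-ablated, symbols give the replicate number and black bars the mean ± SD (n = 3). The Ihh-ablated arrays lie below all controls for Hoxd11, Hoxa13, Hoxb13, Hoxa3, Hoxa7, Hoxb4 and Hoxc9 and above them for Hoxb2 and Hoxb3, and the groups overlap for Hoxa5, Hoxa9, Hoxa10, Hoxa11, Hoxc10 and Hoxd10.

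At the central and anterior positions no gene passed. Hoxb3 and Hoxb2, which act in the hindbrain, had higher Ihh-ablated arrays. Hoxb3 read 268, 244 and 400 in control and 417, 410.1 and 409 on Ihh-ablated arrays (log2 0.47, 95% interval 0.09 to 0.85, adjusted p = 0.155). Control replicate 3 lay beside the Ihh-ablated arrays and apart from the other controls, and without it the difference passed (log2 0.69, adjusted p = 0.00770). Hoxb3 differed by 0.27 (adjusted p = 0.706) with the adipocyte covariate, and the cause of this shift was not tested. These are values of its brightest probe set. The dimmer Hoxb3 probe set differed by 0.12 (limma adjusted p = 0.559), with overlapping groups, and the mean of its probe sets by 0.30 (0.204). Hoxb2 read 301, 281 and 345 against 358, 364 and 376, without overlap (log2 0.25, adjusted p = 0.213).

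In the Hoxa cluster the tested central members, Hoxa5 and Hoxa7, and the anterior member Hoxa3 lay on the other side of 0. Hoxa7 read 195, 265 and 167 in control and 163, 167 and 154 on Ihh-ablated arrays (log2 -0.35, adjusted p = 0.242). Hoxa5, needed for mouse lung and airway development, read 209, 274 and 178 against 182, 174 and 174 (log2 -0.30, adjusted p = 0.283). Hoxa3, needed for the mouse thymus and parathyroid, read 207, 310 and 208 against 197, 196 and 187 (log2 -0.29, adjusted p = 0.299). In all of these control replicate 2 was the highest array, and the groups overlapped for Hoxa5 and not for Hoxa7 or Hoxa3. A dimmer Hoxa5 probe set differed by -0.006 (limma adjusted p = 0.988), with control replicate 1 as its highest array. Control replicate 2 was also highest for Hoxb4, a regulator of blood stem cell growth, which read 240, 296 and 250 against 228, 217 and 231 (log2 -0.21, adjusted p = 0.301, groups without overlap). Control replicate 2 was the highest control array for 13 of 26 tested Hox genes, and for 47.1% of all genes tested. The remaining tested genes at these positions, Hoxb5, Hoxb6, Hoxb7, Hoxc4, Hoxc5, Hoxc6, Hoxd3 and Hoxd8, differed by between -0.26 (Hoxc6) and 0.25 (Hoxb5), with adjusted p values from 0.301 to 0.972.

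By cluster, the tested Hoxa genes had a median log2 difference of -0.29 (7 genes, 6 below 0), the Hoxb genes 0.09 (8 genes, 3 below 0), the Hoxc genes -0.01 (5 genes, 3 below 0) and the Hoxd genes -0.13 (6 genes, 4 below 0). The Hoxa median stayed below 0 under quantile normalization (-0.26), under median centring (-0.20) and in the fit with the adipocyte covariate (-0.22). Most Hoxa differences were nearer 0 without control replicate 2. Hoxa3 was then at -0.10, Hoxa5 at -0.13, Hoxa7 at -0.17 and Hoxa10 at -0.04. Hoxa11 was at -0.13, Hoxa13 at -0.49 and Hoxa9, above 0 in the main fit, at -0.11. As means of their probe sets Hoxa3 was at -0.10 and Hoxa5 at -0.15. The Hoxc median turned to 0.08 under both normalizations, and the Hoxb median to -0.01 with the adipocyte covariate. By paralogue position, genes at 1 to 4 had a median of 0.06 (6 genes, 2 below 0), those at 5 to 8 of -0.04 (8 genes, 5 below 0) and those at 9 to 13 of -0.16 (12 genes, 9 below 0). The median at 5 to 8 turned to 0.06 with median-centred arrays, and that at 9 to 13 was then -0.07. Groups were apart with lower Ihh-ablated arrays for 5 of 12 genes at 9 to 13, for 2 of 8 at 5 to 8 and for 2 of 6 at 1 to 4, against 19% of all genes. They were apart with higher Ihh-ablated arrays for 2 genes at 1 to 4 (Hoxb2 and Hoxb3) and for 0 at the other positions, against 13.3% of all genes. These medians are descriptions of few genes and were not tested against each other.

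**Figure D4:**
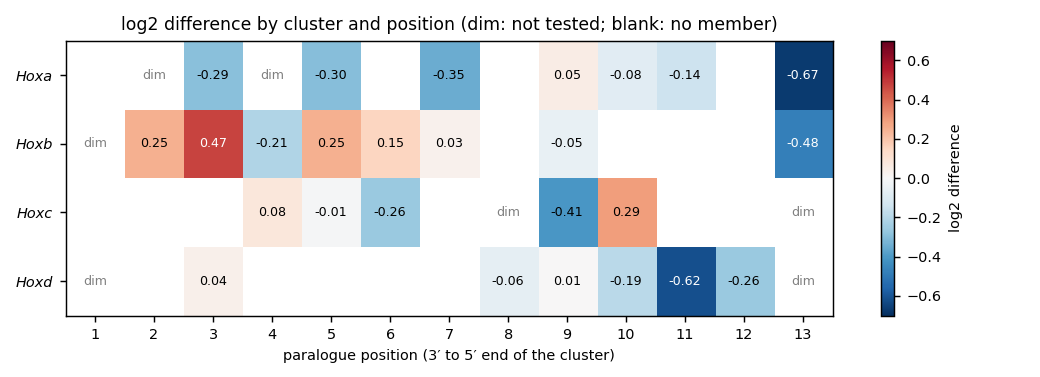
Rows are the 4 clusters and columns the paralogue positions; each cell gives the log2 difference of the gene's brightest probe set (Ihh-ablated minus control), with genes too dim to test marked dim and cells without a member left blank. Hoxa13 (-0.67), Hoxd11 (-0.62) and Hoxb13 (-0.48) are the darkest blue cells, at positions 11 and 13, and Hoxb3 (0.47) the darkest red cell.

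The 7 member genes without a tested probe set were Hoxa2, Hoxa4, Hoxb1 and Hoxd1 at the anterior end, Hoxc8 in the middle and Hoxc13 and Hoxd13 at the posterior end. Hoxb1 and Hoxa2 pattern the hindbrain and head, Hoxc13 the hair and nails, and Hoxd13 the digits. Together with dim probe sets of Hoxa3 and Hoxc5, 11 member probe sets were left out, and their readings ran from 23.8 to 85.3. No detection calls were used here, so whether these readings lie above background is not known. For Hoxd13, the terminal Hoxd gene next to Hoxd12, both probe sets were dim, with readings from 46.7 to 78.1.

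Genes with several tested probe sets gave a check on how far a single reading can be taken. Of 9 such genes, 3 had probe sets on both sides of 0. The dimmer Hoxa9 probe set read 729, 837 and 492 in control and 484, 457 and 477 on Ihh-ablated arrays (log2 -0.50, adjusted p = 0.143), without overlap, against 0.05 for the brighter one. Without control replicate 3 the dimmer one passed (log2 -0.73, adjusted p = 0.00552). For Hoxc6 the probe sets gave -0.26, -0.16 and 0.49, and the last of these passed without control replicate 3 (log2 0.72, adjusted p = 0.0436). Hoxa3 probe sets ran from -0.29 to 0.06. Those of Hoxb4 differed by less than 0.01, at -0.21 each, and those of Hoxa10 read -0.08 and -0.31. Hoxd11, Hoxa11, Hoxa13 and Hoxb13 had 1 probe set each, so no other reading of them could be set beside it.

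**Figure D5:**
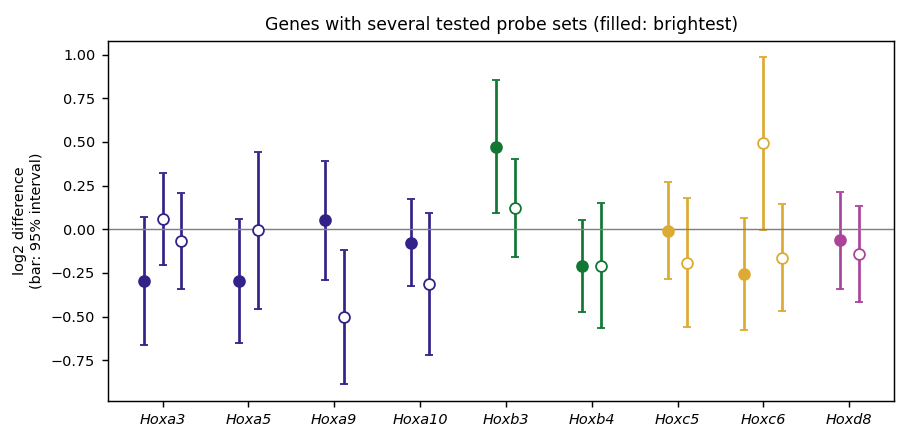
For the 9 Hox genes with several tested probe sets, points give each probe set's log2 difference (Ihh-ablated minus control), bars the 95% interval, filled points the brightest probe set, and colours the cluster. The probe sets of Hoxa9 (0.05 and -0.50) and Hoxc6 (-0.26, 0.49 and -0.16) lie on both sides of 0, and those of Hoxb4 nearly coincide.

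Transcripts of the other Hox loci did not pass. Hoxb5os, antisense at the Hoxb cluster, read 313, 349 and 353 in control and 441, 405 and 366 on Ihh-ablated arrays (log2 0.25, adjusted p = 0.205). Its groups did not overlap. Hoxd3os1 differed by 0.04 (adjusted p = 0.841). The 3 probe sets that named several Hox genes, which are no members, read 0.20 for Hoxb7 and Hoxb8 together and -0.16 and 0.17 for Hoxd3 and Hoxd4 together.

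Partners and regulators of Hox proteins were described from lists chosen for their known roles. Of 9 tested genes, those of the Pbx, Meis and Pknox families, whose proteins bind DNA together with Hox proteins, and Pbxip1, whose protein binds and inhibits Pbx proteins, 0 passed, and the median log2 difference was 0.03. Meis1 (0.23, adjusted p = 0.203), Pbxip1 (0.15, 0.348) and Pbx4 (-0.25, 0.369) had the lowest p. Of 24 tested Polycomb and Trithorax genes, which keep Hox genes silent or active through histone marks, 0 passed (median 0.01). Among them were Ezh2, the methyltransferase of Polycomb and more abundant in dividing cells (318 ± 27.9 in control, 230 ± 21.7 on Ihh-ablated arrays, log2 -0.47, adjusted p = 0.0794), its relative Ezh1 (0.46, 0.152) and Wdr5 (-0.37, 0.202). Of 8 tested Cdx factors, retinoid receptors and retinoic acid hydroxylases, which act upstream of Hox genes in the embryo, 0 passed (median 0.02), with Cdx2 (-0.21, adjusted p = 0.378), Rxrb (0.14, 0.393) and Rxra (0.13, 0.455) at the lowest p.

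Of 9 tested genes tied to Hoxa10 in the uterus, Ptger4 fell and the other 8 did not pass, against 2.81% of all genes called. The median log2 difference of the 9 was 0.12. Ptger4, a prostaglandin E receptor that is low in stroma of mice without Hoxa10, read 1334, 1087 and 1211 in control and 869, 761 and 919 on Ihh-ablated arrays. Its groups did not overlap and its level fell (limma log2 -0.51 with SE 0.10, adjusted p = 0.0394). Ptger4 passed in 8 of 19 alternatives. Its call was lost without control replicate 1 (0.139), control replicate 2 (0.0553), and Ihh-ablated replicates 1, 2 and 3 (0.120, 0.117 and 0.0716). It was also lost without both arrays with other-tissue transcripts (0.0645), under median centring (0.139) and with the adipocyte covariate (0.466). Without the filter on dim probe sets (0.0624) or an intensity trend (0.0968) it did not pass either. As the mean of its probe sets Ptger4 differed by -0.42 (limma adjusted p = 0.128). Emx2, a homeobox gene that HOXA10 represses in human endometrial cells, read 683 ± 75.7 in control and 934 ± 104 on Ihh-ablated arrays, without overlap (log2 0.45, adjusted p = 0.0767). Pgr, the progesterone receptor, differed by 0.18 (adjusted p = 0.129). Of 13 tested genes that pattern the embryonic tract, 0 passed (median 0.12). Besides Emx2, Msx2 (481 ± 149 against 276 ± 26.0, log2 -0.76, adjusted p = 0.0943) and Wnt5a (0.35, 0.121) had the lowest p.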

How the data were processed

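The deposited file holds 1 processed intensity per probe set and array on a linear scale. Per the labels' protocols, RNA was labelled as biotinylated cRNA; probe summary, background correction and normalization were not given in the sources used here, and they could change dim probe sets most. Control probe sets (64 of 45101) were left out. Symbols came from the platform annotation (34945 probe sets with 1 symbol, 932 with several, 9160 with none), and all 48 members matched RefSeq by Entrez ID. Values under 16 were set to 16 (1821 values) before log2. Array medians of log2 differed by 0.231, below the limit of 0.3, so the authors' normalization was kept. The lowest 25% by mean log2 were left out (33778 tested). Genotype was fitted with limma 3.58.1 (R 4.3.3), with the variance prior allowed to follow mean intensity (residual degrees of freedom 4, prior 5.25). Benjamini-Hochberg adjustment ran across every probe set tested. The limma fit was tested on simulated data with changes larger than any Hox difference given here, so its recovery at the sizes seen here was not tested. The number of arrays limits the precision. Alternatives changed normalization, floor, filter, variance model, array weights, replicate block, arrays included, covariate, threshold and gene summary. Correlations over all pairs of the 6 arrays, within and across groups, ran from 0.951 to 0.990. Members, lists and alternatives were chosen with earlier results of these data known. The genes given by array are those called, the 12 of lowest p, and Hoxa9, Hoxa10, Hoxa11, Hoxa13, Hoxd10 and Hoxd11; in other lists, called genes and the 3 of lowest p. Figures used matplotlib 3.10.9 (Python 3.11.15).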

Additional observations from a re-analysis of the deposited data

How the results depend on the processing

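The number of called Hox genes, 1 in the reported fit, was 0 under median centring, 0 in the fit with the adipocyte covariate, 2 with array weights (Hoxa13 beside Hoxd11) and at an adjusted p under 0.10, and 3 without both arrays with other-tissue transcripts. Leaving out 1 array gave 0 to 4, with 4 without control replicate 3 (Hoxa13, Hoxb13 and Hoxd11 lower, Hoxb3 higher; 12.2% of all genes passed in that fit) and 0 without any other array. By probe set the counts were 0 under median centring, 0 with the covariate, 2 with array weights, 4 without both arrays and 0 to 6 with 1 array left out. Among all features 724 probe sets passed, against 374 without an intensity trend, 1411 with array weights, 1562 with the replicate block, 1915 without both arrays with other-tissue transcripts, 11 with the adipocyte covariate and 156 to 3569 with 1 array left out. Of called probe sets 51.9% were lower, and 41.3% with median-centred arrays. Same-numbered samples correlated in their deviations from group means at -0.15, -0.04 and 0.25. With 3 arrays in each group, these values cannot decide whether the numbers pair the samples. With the replicate block 1562 probe sets passed, against 724 without it, and 1 Hox gene passed (Hoxd11, limma adjusted p = 0.0344). The Hoxa9 difference of 0.05 ran from -0.11 (without control replicate 2) to 0.18 with 1 array left out, below 0 also without Ihh-ablated replicate 3 (-0.037), and turned to -0.076 with array weights, -0.060 with the adipocyte covariate and -0.23 as the mean of its probe sets. That of Hoxa10, -0.08, ran from -0.20 to 0.011 (without control replicate 1) with 1 array left out and turned to 0.014 under median centring and 0.12 with the adipocyte covariate. The cause of these moves was not tested. Hoxa13 had no value with the lowest 50% of probe sets left out. Hoxd11 stayed below 0 in all 19 alternatives (log2 -0.73 to -0.52). Dim probe sets limit what can be said of Hoxa13 and of the 7 untested genes, since no detection calls were used.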
